A study of Mus musculus with 6 samples.

Results

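Matrix metalloproteinases (MMPs) are zinc-dependent proteases that cut collagens, gelatin and other proteins of the extracellular matrix, and tissue inhibitors of metalloproteinases (TIMPs) bind their active site and block it. Most MMPs are made as inactive proenzymes that are switched on outside the cell by other proteases, or by furin on the way to the surface. In the pressure-overloaded heart fibroblasts are a main source of these proteins. Described here are the 10 genes of both families chosen by symbol, *Mmp2*, *Mmp3*, *Mmp11*, *Mmp14*, *Mmp19*, *Mmp23*, *Timp1*, *Timp2*, *Timp3* and *Timp4*, out of 28987 genes measured. They comprise 6 MMP genes and all 4 TIMP genes, and all 10 were among the 15109 genes with a mean linear value of at least 1, which were tested.

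Ventricular EGFP+ cells were sorted and profiled by RNA-seq 4 weeks after transverse aortic constriction (TAC), surgery that narrows the aorta and loads the left ventricle with pressure. Both groups, of 3 libraries each, carried a tamoxifen-activated Cre recombinase (MerCreMer) knocked into the *Postn* locus and a Rosa26 EGFP reporter, so that cells of the *Postn* lineage were marked in controls too, while the Hsp47-deleted mice also had loxP-targeted *Hsp47*, which encodes a collagen chaperone. Mice were 8 to 10 weeks old at surgery, and per the labels received tamoxifen by injection (100 mg/kg) and in chow (40 mg/kg), doses that differ from those in the study's methods. Control libraries 3 and 4 are labelled with one sequencing run, here called the first, and control library 2 and Hsp47-deleted libraries 1, 2 and 3 with another, the second. The title of control library 2 lacks the Con of the other controls, and its group comes from its genotype label. Over all tested genes its Pearson correlation was 0.872 to 0.936 with the libraries labelled Hsp47-deleted, which share its run. With control libraries 3 and 4 it was 0.827 and 0.761. *Serpinh1*, the symbol for *Hsp47*, measured 6.10 to 7.60 (log2) in the controls and 6.66 to 6.87 in those labelled Hsp47-deleted (log2 fold change 0.072, limma, BH-adjusted p = 0.947), with a difference of -0.87 against the second-run control. The first-run controls measured 6.28 and 6.10, and the second-run control, at 7.60, lay above every library labelled Hsp47-deleted. Pooled over the runs, the gene-level value of the targeted gene thus does not separate the labels. Groups go by their labels below, and library numbers are the replicate numbers of the labels.

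Values are the deposited log2(value + 1), and linear values are these with the log2 undone. Linear sums over all genes ran from 690498.5 to 855404.3 per library and are not read counts, so the depth is unknown. The median log2 fold change of all genes tested was 0.35, and centring each library on its median moved it to -0.060. In bulk RNA, fewer cells of a type and less RNA per cell cannot be told apart. Summed linear values of 9 fibroblast markers were 8070 to 11000 in the controls and 12600 to 14300 in the libraries labelled Hsp47-deleted, against 46.6 to 284 and 184 to 287 for 9 cardiomyocyte markers, 92.8 to 255 and 165 to 245 for 9 endothelial markers, 41.0 to 423 and 154 to 287 for the 10 leukocyte markers in the table, and 164 to 289 and 115 to 175 for 7 mural cell markers. *Postn*, from whose locus the Cre is expressed, made up 56.9 to 68.5 of the fibroblast sum in the controls and 1190 to 1450 in the other group. *Dcn* made up 5090 to 7400 and 7750 to 8640 of it, while *Lum* was 1200 to 1400 and 1140 to 1260. Of the 9 fibroblast markers, 7 had a log2 fold change above 0, beside 74.5% of all tested genes. *S100a8* and *S100a9* measured 165 and 167 in control library 2 and at most 1.44 in the first run. *Rgs5* made up 139 to 253 and 86.8 to 139 of the mural sum. *Ptprc*, which defines leukocytes, was listed at 0 in every library. Other markers of that list were not, with *Cd68* at 19.2 to 63.6, *Lyz2* at 1.29 to 56.7 and *S100a8* at 0.638 to 165. The value of *Ptprc* therefore does not show that leukocytes were absent. The part of these cell types in the values below was not tested.

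In the sorted EGFP+ cells of both groups, 1 MMP and 3 TIMPs were measured at levels far above the rest. On the linear scale, which was found to be per transcript length, *Mmp2* had the highest mean over the 6 libraries (506, from 296 to 788), followed by *Timp3* (467, from 407 to 553), *Timp2* (431, from 358 to 482) and *Timp1* (222, from 148 to 409). These 4 genes lay between the 97.4th and the 98.9th percentile of all tested genes, and each range overlapped that of its neighbour. *Mmp14*, which encodes the membrane-type collagenase, followed at 61.5 (from 46.1 to 73.3), below every library's value for *Timp1*. The remaining levels were 37.9 for *Mmp23*, 13.1 for *Mmp11*, 9.77 for *Mmp19*, 5.27 for *Timp4* and 5.06 for *Mmp3*, and the range of each overlapped that of the next. *Timp4* had the widest relative range, from 0.239 to 10.8.

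**Figure D1:**
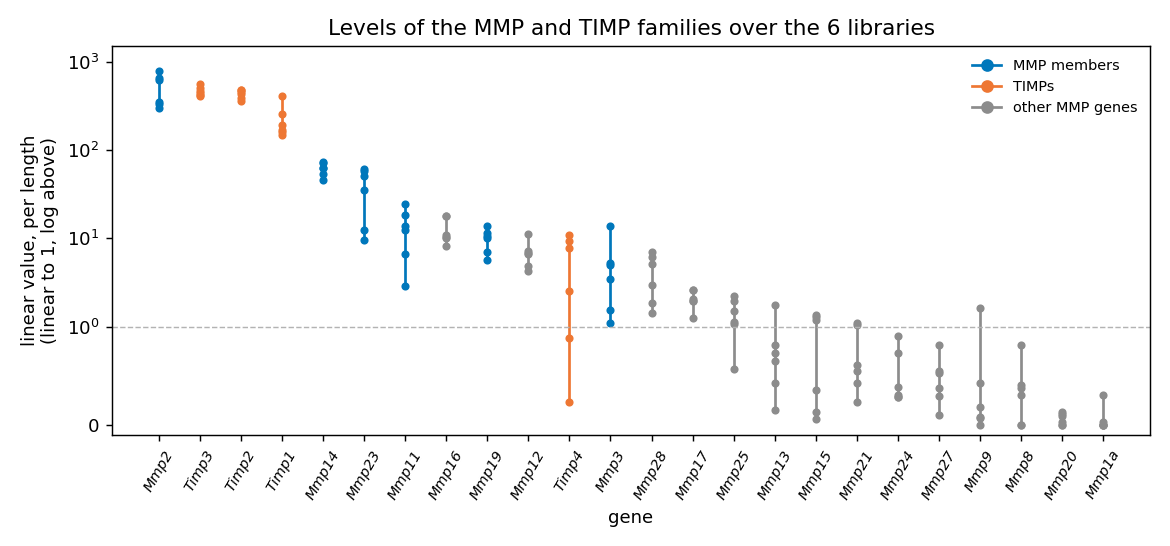
Linear values of the 10 members and the 14 other MMP genes listed above 0 in any library, ordered by mean. The y axis is linear up to 1 and logarithmic above, each point is 1 of the 6 libraries and the lines span their range. *Mmp2*, *Timp3*, *Timp2* and *Timp1* stand above 100 in every library.

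None of the other MMP genes had a mean above that of *Mmp11*. Of 17 further MMP genes in the table, *Mmp1b*, *Mmp7* and *Mmp10* were listed at 0 in every library and 5 passed the filter. Those 5 were *Mmp12*, the macrophage elastase (log2 values from 2.41 to 3.60), *Mmp16* and *Mmp17*, which encode membrane-type MMPs (from 3.19 to 4.26 and from 1.18 to 1.85), *Mmp25*, another membrane-type MMP (from 0.65 to 1.70), and *Mmp28*, epilysin (from 1.29 to 3.00). *Mmp9*, the other gelatinase, reached 1.40 in Hsp47-deleted library 3 and ran from 0 to 0.52 in the remaining libraries. *Mmp8*, the neutrophil collagenase, reached at most 0.86, and *Mmp13*, an interstitial collagenase, at most 1.47. The highest log2 values of *Mmp15*, *Mmp21*, *Mmp24*, *Mmp27*, *Mmp1a* and *Mmp20* were 1.23, 1.08, 0.93, 0.86, 0.39 and 0.18. In GRCm38, 10 of the 27 genes of both lists stand within 427 kb of chromosome 9 (7272514 to 7699585), and *Mmp3* had the highest single value among the genes of this cluster, at 3.90.

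Short promoter motifs differed among the members. Stretches of 100 bases before the RefSeq start (GRCm38.p6) are shown for *Mmp3* and *Timp1*, which both had their highest value in Hsp47-deleted library 3, and for *Mmp14*, whose values were the steadiest of the MMP members in the libraries labelled Hsp47-deleted. They are chr9:7445722-7445821, chrX:20870066-20870165 and chr14:54431498-54431597, all on the plus strand and outside annotated exons, and capitals mark matches to the letters searched.
Mmp3: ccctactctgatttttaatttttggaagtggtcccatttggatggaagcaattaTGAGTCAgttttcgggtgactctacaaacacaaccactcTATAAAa
Timp1: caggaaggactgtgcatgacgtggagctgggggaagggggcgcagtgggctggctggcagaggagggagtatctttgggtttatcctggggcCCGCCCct
Mmp14: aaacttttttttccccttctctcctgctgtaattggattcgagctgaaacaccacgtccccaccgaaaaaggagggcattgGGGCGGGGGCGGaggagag
The letters searched in the 250 bases before each start were TGAGTCA on both strands (the AP-1 motif), GGGCGG on both strands (the GC box, which reads CCGCCC on the reverse strand) and TATAAA on the given strand (the TATA box). They occurred in 4.43%, 32.9% and 8.12% of 27025 promoters over the same length. *Mmp3* held the AP-1 and TATA letters and no GC box, *Timp1* held 1 GC box in reverse, and *Mmp14* held 2 GC boxes that follow each other directly. Of the 8 members with a promoter entry, *Mmp3* was the only one with the AP-1 letters, and *Mmp11*, *Timp2* and *Timp3* also held the GC box. A match is a run of letters, not a measured binding site. No entry was found for *Mmp2* and *Mmp19*.

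The question of the comparison was how *Hsp47* deletion alters the transcriptome of activated fibroblasts. No member passed a BH-adjusted limma p under 0.05, a threshold that 0.245% of all tested genes passed. At an unadjusted p under 0.05, *Mmp2* and *Mmp23* were higher with the Hsp47-deleted label, 2 of 10 members beside 14.5% of all tested genes. The log2 fold change was above 0 for 9 of 10 members, *Mmp11* being the exception, beside 74.5% of all genes. The median over the members was 0.61, or 0.25 more than that over all genes. With the libraries centred on their medians it was 0.19, beside -0.060 for all genes, with 6 members and 6910 of 15109 genes above 0. Against the second-run control it was 0.12, below the 0.29 of all genes, with 6 members and 10850 of 15109 genes above 0. For *Mmp2* alone, every library labelled Hsp47-deleted was above every control, 1 of 10 members beside 18.3% of all genes. They all lay above the second-run control for *Mmp2*, *Mmp3*, *Timp1* and *Timp2*, 4 of 10 members beside 46.7% of all genes.

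**Figure D2:**
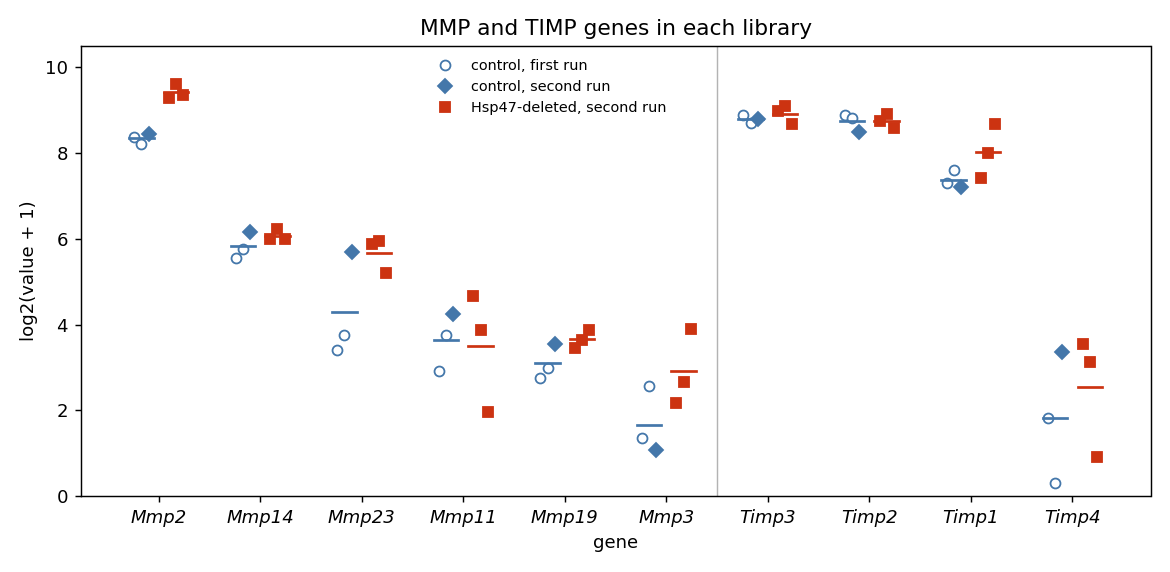
Log2(value + 1) of the 10 members in each library (y axis), MMPs left and TIMPs right of the grey line. Open circles are the controls of the first run, filled diamonds the second-run control, squares the libraries labelled Hsp47-deleted, and bars the group means; *Mmp2* is the only gene whose groups do not overlap.

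*Mmp2* (ENSMUSG00000031740, chromosome 8 from 92827291 to 92853420, plus strand, GRCm38) encodes the gelatinase that cuts denatured collagen and basement membrane collagen. Its log2 value was 8.38, 8.22 and 8.45 in control libraries 3, 4 and 2, and 9.28, 9.62 and 9.35 in Hsp47-deleted libraries 1, 2 and 3. The lowest library labelled Hsp47-deleted lay above the highest control, and the controls of both runs were close to each other. The group means of *Mmp2* were 8.35 ± 0.12 (SD, n = 3) and 9.42 ± 0.18 (SD, n = 3). The log2 fold change was 1.07 (standard error 0.28, 95% interval from 0.42 to 1.73, limma, BH-adjusted p = 0.252, unadjusted p of 0.00557), or 2.10-fold with an interval from 1.33 to 3.31. By p, it ranked 333 of 15109 genes. Against the second-run control alone the difference was 0.97, after centring it was 0.66 and after quantile normalization 0.51. Without control library 2 it was 1.12 with a BH-adjusted limma p of 0.0227, but sequencing run and label then coincide.

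*Mmp14* (ENSMUSG00000000957, chromosome 14 from 54431612 to 54445364, plus strand) encodes the membrane-anchored protease that cuts fibrillar collagen and, with TIMP2 as a bridge, activates pro-MMP2. It measured 5.56, 5.76 and 6.16 in control libraries 3, 4 and 2, and 5.99, 6.22 and 6.0 in Hsp47-deleted libraries 1, 2 and 3. The highest control lay within the range of the libraries labelled Hsp47-deleted. Between the groups the log2 fold change was 0.24 (standard error 0.29, 95% interval from -0.43 to 0.91, limma, BH-adjusted p = 0.703), and the sign turned against the second-run control (-0.10) and after centring (-0.18). The interval allowed levels from 0.743-fold to 1.87-fold those of the controls.

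*Mmp23* (ENSMUSG00000029061, chromosome 4 from 155650655 to 155653384, minus strand) encodes an MMP that is anchored in the membrane by its amino-terminal part and lacks the hemopexin domain of most family members. Values were 3.42 and 3.75 in the controls of the first run, 5.69 in the second-run control, and 5.87, 5.95 and 5.20 in Hsp47-deleted libraries 1, 2 and 3. The split thus followed the sequencing run, with control library 2 inside the range of the libraries labelled Hsp47-deleted. The controls averaged 4.29 ± 1.23 (SD, n = 3) and the other group 5.67 ± 0.42 (SD, n = 3), and the log2 fold change was 1.39 (standard error 0.59, 95% interval from 0.011 to 2.76, limma, BH-adjusted p = 0.324, unadjusted p of 0.0486). Within the second run the difference was -0.019. Without control library 2 it was 2.09 (limma, BH-adjusted p = 0.00948), a comparison in which run and label cannot be told apart. A gap of at least 1 log2 unit between control library 2 and both other controls, as *Mmp23* showed upwards, was found upwards at 17.2% of all tested genes.

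*Mmp11* (ENSMUSG00000000901, chromosome 10 from 75923222 to 75936496, minus strand) encodes stromelysin-3, which furin activates inside the cell. It measured 2.92, 3.75 and 4.26 in control libraries 3, 4 and 2, and 4.68, 3.87 and 1.97 in Hsp47-deleted libraries 1, 2 and 3. Hsp47-deleted libraries 1 and 3 were the highest and the lowest of all 6 libraries. The log2 fold change was -0.14 (standard error 0.69, 95% interval from -1.75 to 1.47, limma, BH-adjusted p = 0.937), and leaving out Hsp47-deleted library 3 gave 0.63, while leaving out control library 2 gave 0.17. The gene shares 155 exonic bases with *Chchd10* on the other strand, and the reads of both genes cannot be told apart there, since the library kit is not stated to keep strand.

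*Mmp19* (ENSMUSG00000025355, chromosome 10 from 128790910 to 128800824, plus strand) encodes a secreted MMP that cuts basement membrane proteins. Values were 2.75, 2.99 and 3.55 in control libraries 3, 4 and 2, and 3.46, 3.64 and 3.88 in Hsp47-deleted libraries 1, 2 and 3. Only the second-run control reached into the other group. Its log2 fold change was 0.57 (standard error 0.33, 95% interval from -0.20 to 1.33, limma, BH-adjusted p = 0.424), with 0.11 within the second run and 0.15 after centring. It shares 789 exonic bases with *Tmem198b* on the other strand, whose log2 values ran from 1.00 to 3.40.

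*Mmp3* (ENSMUSG00000043613, chromosome 9 from 7445822 to 7455975, plus strand) encodes stromelysin-1, which cuts proteoglycans and fibronectin and activates other MMPs. It had the lowest mean linear value of the members, and its log2 values were 1.36, 2.58 and 1.08 in control libraries 3, 4 and 2, and 2.17, 2.66 and 3.90 in Hsp47-deleted libraries 1, 2 and 3. The groups overlapped through control library 4, and Hsp47-deleted library 3 stood highest. Its means were 1.67 ± 0.80 (SD, n = 3) in the controls and 2.91 ± 0.89 (SD, n = 3). The log2 fold change was 1.23 (standard error 0.57, 95% interval from -0.091 to 2.56, limma, BH-adjusted p = 0.345, unadjusted p of 0.0639). In contrast to *Mmp23*, the difference from the second-run control was larger than the pooled one, at 1.83, whereas leaving out Hsp47-deleted library 3 gave 0.74. The first run held controls only, so a fit with sequencing run as a covariate takes its estimate from the second run, where control library 2 is the only control. With sequencing run as a covariate, *Mmp2* and *Mmp3* were the members at an unadjusted limma p under 0.05 (0.0134 and 0.0437), 2 of 10 beside 5.46% of all genes that were higher by the same rule. Neither passed after adjustment (BH-adjusted p of 0.597 and 0.719), a threshold that 0.331% of all genes passed in that fit.

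**Figure D3:**
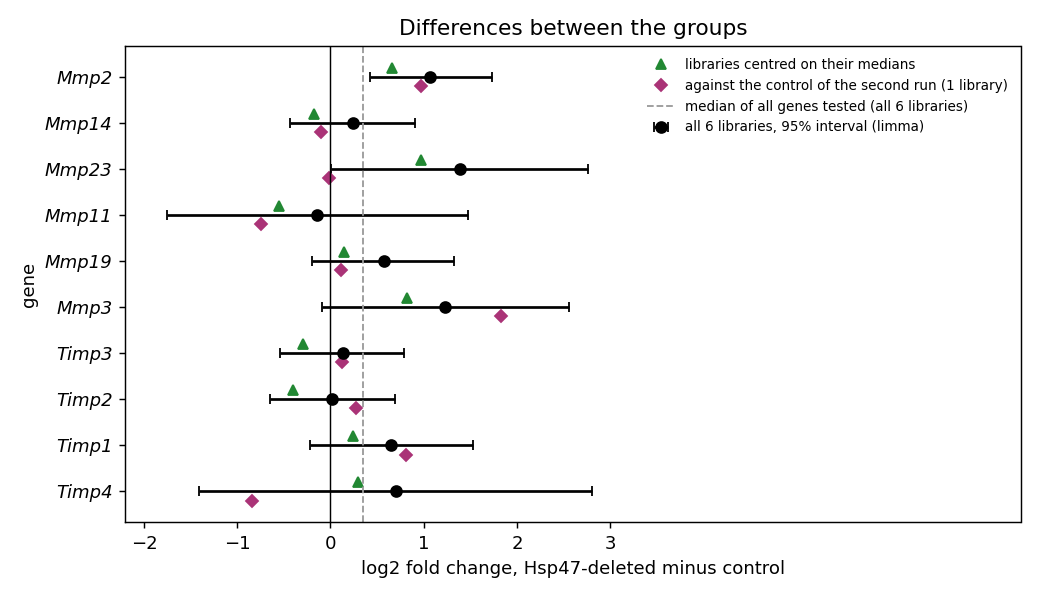
Log2 fold change of each member, libraries labelled Hsp47-deleted minus control (x axis). Circles with bars are limma estimates with 95% intervals from all 6 libraries, diamonds the difference from the second-run control, triangles the estimate after median centring, and the dashed line the median of all genes at 0.35; the interval excludes 0 for *Mmp2* (from 0.42) and *Mmp23* (from 0.011), and the diamond of *Mmp23* is at -0.019.

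Among the inhibitors, *Timp2* and *Timp3* were the steadiest. *Timp2* (ENSMUSG00000017466, chromosome 11 from 118301069 to 118355740, minus strand), which both inhibits MMPs and takes part in the activation of pro-MMP2, measured 8.89, 8.83 and 8.49 in control libraries 3, 4 and 2, and 8.76, 8.91 and 8.59 in Hsp47-deleted libraries 1, 2 and 3. The groups overlapped almost fully. Its log2 fold change was 0.018 (95% interval from -0.65 to 0.69, limma, BH-adjusted p = 0.981), so levels from 0.635-fold to 1.61-fold were within the error. Centring moved it to -0.40. *Timp3* (ENSMUSG00000020044, chromosome 10 from 86300372 to 86349506, plus strand), whose product binds to the matrix, measured 8.88, 8.71 and 8.80 in control libraries 3, 4 and 2, and 8.99, 9.11 and 8.67 in Hsp47-deleted libraries 1, 2 and 3. Hsp47-deleted libraries 2 and 3 were the highest and the lowest library. The log2 fold change was 0.13 (95% interval from -0.54 to 0.79, limma, BH-adjusted p = 0.845), and -0.29 after centring. *Timp3* lies inside *Syn3* on the other strand and shares 1733 exonic bases with it, and *Syn3* had log2 values from 2.00 to 3.08.

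*Timp1* (ENSMUSG00000001131, chromosome X from 20870166 to 20874735, plus strand) encodes a soluble inhibitor that cells release. Values were 7.31, 7.60 and 7.22 in control libraries 3, 4 and 2, and 7.41, 8.0 and 8.68 in Hsp47-deleted libraries 1, 2 and 3. Hsp47-deleted library 1 lay among the controls and library 3 above all other libraries, the library in which *Mmp3* and *Mmp19* were highest too. The control mean was 7.38 ± 0.20 (SD, n = 3) and the other 8.03 ± 0.63 (SD, n = 3), with a log2 fold change of 0.65 (standard error 0.38, 95% interval from -0.22 to 1.53, limma, BH-adjusted p = 0.419). Within the second run the difference was 0.81, and without Hsp47-deleted library 3 the pooled one was 0.33.

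*Timp4* (ENSMUSG00000030317, chromosome 6 from 115241892 to 115252205, minus strand) encodes the inhibitor best known from heart tissue. It measured 1.82, 0.31 and 3.37 in control libraries 3, 4 and 2, and 3.56, 3.14 and 0.91 in Hsp47-deleted libraries 1, 2 and 3. Both groups held a library near 1 or below and one above 3. The groups differed by a log2 fold change of 0.70 (standard error 0.91, 95% interval from -1.41 to 2.81, limma, BH-adjusted p = 0.723). This difference was -0.84 within the second run and -0.058 without control library 4. In the same order of libraries, the summed linear value of the cardiomyocyte markers was 104, 46.6, 284, 233, 287 and 184, and that of the endothelial markers was 148, 92.8, 255, 245, 211 and 165. The 3 libraries with *Timp4* above 3 were also the 3 highest in both sums, and the lowest was the same library, control library 4. The same 3 libraries were the highest for *Mmp23* and *Mmp11* too. Hsp47-deleted library 3 was above control library 3 in both sums but below it in *Timp4* (0.91 against 1.82). The fibroblast, leukocyte and mural sums ordered the libraries otherwise. For fibroblasts the 3 highest were the libraries labelled Hsp47-deleted. In the leukocyte sum Hsp47-deleted library 3 (285) exceeded library 1 (154), and control library 3 was highest in the mural sum (289). The part of any of these cell types in the value of *Timp4* was not tested. *Timp4* lies inside *Syn2* on the other strand and shares 90 exonic bases with it.

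The ratio of 2 genes within a library does not depend, apart from the pseudocount of 1, on how that library was scaled, and 8 pairs were compared. The log2 ratio of *Mmp2* to *Timp2* was -0.51, -0.62 and -0.042 in control libraries 3, 4 and 2, and 0.52, 0.71 and 0.76 in Hsp47-deleted libraries 1, 2 and 3. *Mmp2* was thus below *Timp2* in every control and above it in every library labelled Hsp47-deleted. The difference was 1.05, or 2.08-fold, with an exact two-sided permutation p of 0.10, the smallest that 3 libraries against 3 can give (BH-adjusted over the 8 pairs, p = 0.40), and it was 0.71 against the second-run control. The log2 ratio of *Mmp2* to *Mmp14* was 2.82, 2.45 and 2.28 in the controls and 3.30, 3.41 and 3.35 in the libraries labelled Hsp47-deleted, a difference of 0.83 or 1.78-fold (exact permutation p = 0.10, BH-adjusted p = 0.40), and 1.07 within the second run. Groups did not overlap in either pair. Both pairs hold *Mmp2*, the only member whose groups did not overlap by itself (log2 fold change 1.07), over genes that differed less (0.018 for *Timp2* and 0.24 for *Mmp14*). They thus repeat the difference of *Mmp2* and are not separate results. How often other pairs of genes do not overlap was not computed.

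The other 6 ratios overlapped between the groups. The log2 ratio of *Timp1* to *Timp2* was -1.58, -1.23 and -1.27 in the controls and -1.35, -0.92 and 0.093 in the libraries labelled Hsp47-deleted, so that *Timp1* exceeded *Timp2* in Hsp47-deleted library 3 alone. *Mmp3* to *Timp1* differed by 0.58 and *Mmp2* to *Timp1* by 0.42 (exact permutation p = 0.30 for both and for *Timp1* to *Timp2*, BH-adjusted p = 0.48). With each library left out in turn, the difference ran from 0.36 to 0.92 for *Mmp3* to *Timp1*, from 0.18 to 0.78 for *Mmp2* to *Timp1* and from 0.23 to 0.95 for *Timp1* to *Timp2*. With a pseudocount of 5, that of *Mmp3* to *Timp1* was 0.039. *Mmp14* to *Timp2* differed by 0.22, *Mmp14* to *Timp3* by 0.11 and *Timp3* to *Timp2* by 0.11, and all 3 were below 0 against the second-run control (-0.36, -0.22 and -0.14).

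**Figure D4:**
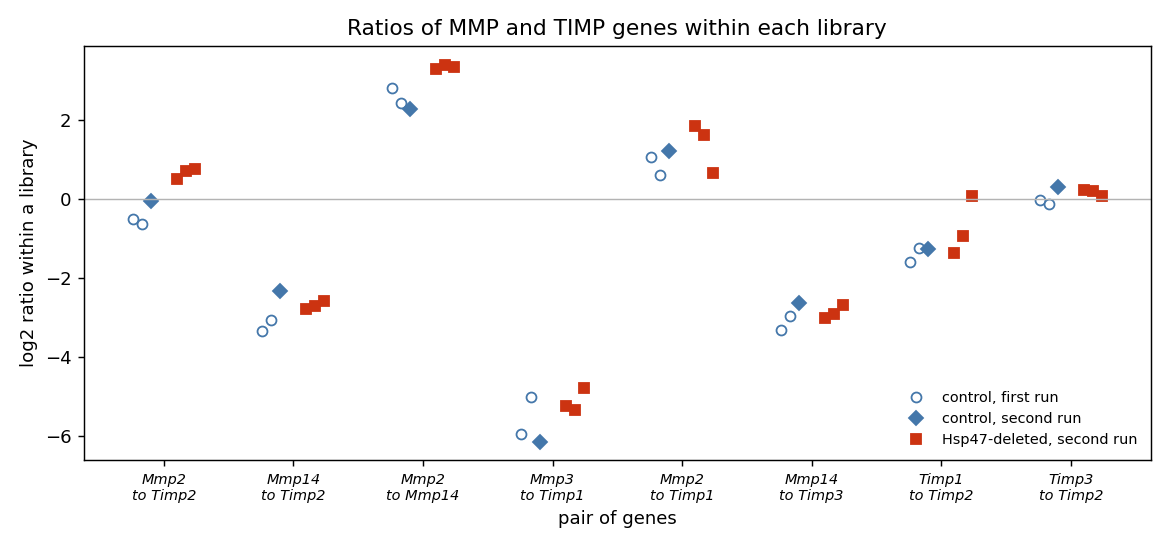
Log2 ratios of 8 pairs of members within each library (y axis), with symbols for run and label as in the plot of single members. *Mmp2* to *Timp2* and *Mmp2* to *Mmp14* are the pairs without overlap, and for *Mmp2* to *Timp2* the grey line at 0 separates the labels.

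Summed linear values describe the balance of the 10 members at the RNA level, with the 17 other MMP genes left out. The 6 MMP members together came to 401, 387 and 499 in control libraries 3, 4 and 2, against 780, 953 and 780 in Hsp47-deleted libraries 1, 2 and 3. The 4 TIMPs came to 1100, 1070 and 960, and to 1120, 1300 and 1200. The MMP sum divided by the TIMP sum was thus 0.363, 0.363 and 0.520 in the controls, and 0.696, 0.735 and 0.650 in the libraries labelled Hsp47-deleted. *Mmp2* made up from 69.7% to 83.4% of the MMP sum in each library, so these values are not separate from the difference of *Mmp2* given above. *Timp1* made up from 14.3% to 19.6% of the TIMP sum in 5 libraries and 34.1% in Hsp47-deleted library 3.

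Genes that act around the MMPs were described by lists written with earlier results known. Of 15 activators and inhibitors 12 were tested, and 11 had a log2 fold change above 0, beside 74.5% of all genes. Their median was 0.49, beside 0.35 for all genes. After centring, 8 of the 12 were above 0, beside 6910 of 15109 genes, and the median was 0.076, beside -0.060. None passed the adjusted limma threshold, and 4 were higher at an unadjusted p under 0.05, beside the 14.5% of all genes. These were *Furin*, the proprotein convertase that activates MMP14 and MMP11 (log2 fold change 0.96, BH-adjusted p = 0.276), *Plat*, the tissue plasminogen activator (0.90, BH-adjusted p = 0.282), *Pcsk6*, a further convertase (1.64, BH-adjusted p = 0.307), and *Lrp1*, the endocytic receptor that clears MMPs and TIMPs (0.73, BH-adjusted p = 0.317), which also had the highest mean of the list. *Furin* measured 3.91, 4.14 and 3.94 in control libraries 3, 4 and 2, and 4.71, 5.13 and 5.03 in Hsp47-deleted libraries 1, 2 and 3. Its groups did not overlap, nor did those of *Plat*, *Lrp1*, *Pcsk7* and *Serpine2*, 5 of 12 beside 18.3% of all genes. *Pcsk6* split by run as *Mmp23* did, with 3.22 and 2.83 in the first run and from 4.78 to 5.87 in the second.

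**Figure D5:**
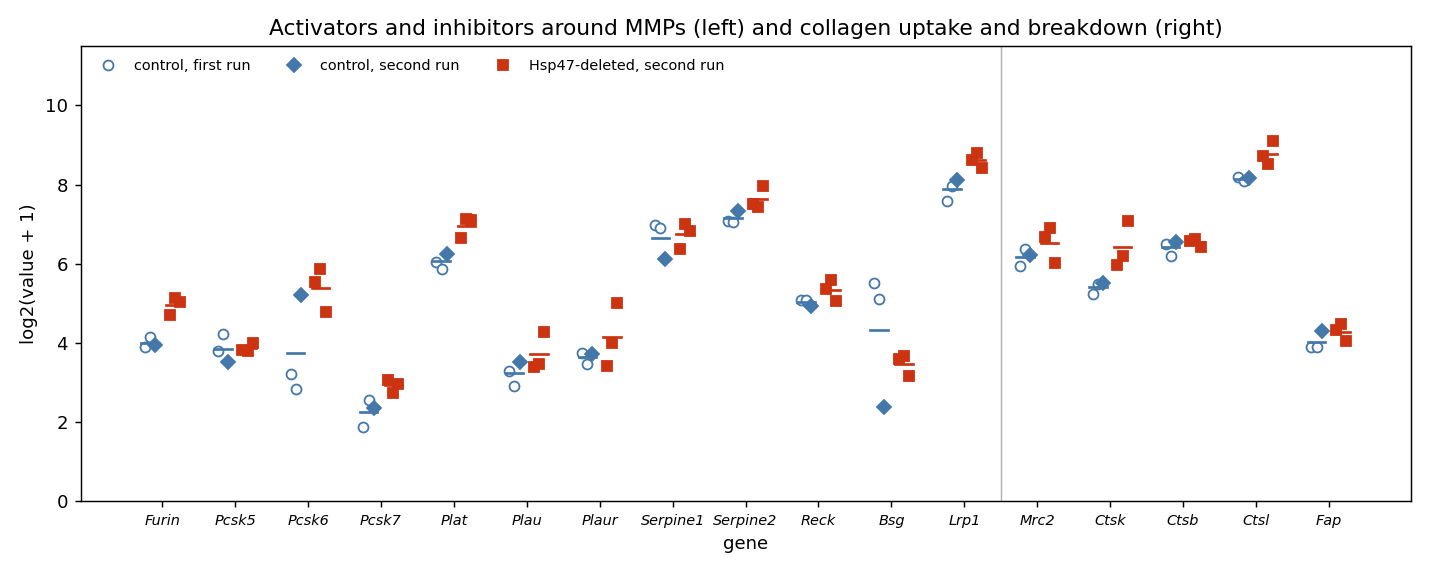
Log2(value + 1) of the tested activators and inhibitors around MMPs and of 5 genes of collagen uptake and breakdown (y axis), with symbols as in the plot of single members and bars for group means. *Furin*, *Pcsk7*, *Plat*, *Serpine2*, *Lrp1*, *Ctsk* and *Ctsl* show no overlap between the labels, and *Pcsk6* and *Bsg* split between the runs.

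*Bsg*, the inducer of MMPs known as EMMPRIN or CD147, was the gene of that list below 0, at -0.86 (limma, BH-adjusted p = 0.591). It measured 5.51 and 5.10 in the first run, 2.39 in the second-run control, and 3.59, 3.67 and 3.17 in Hsp47-deleted libraries 1, 2 and 3. Within the second run its difference was 1.08, opposite in sign to the pooled one. *Bsg*, *Pcsk7* and *Serpine2* were named after their values were seen.

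All 5 genes of collagen uptake and breakdown had a log2 fold change above 0, with a median of 0.36 beside 0.35 for all genes, of which 74.5% were above 0. After centring, 2 of the 5 were above 0 and their median was -0.060, as for all genes. None passed the adjusted threshold. *Ctsk*, the collagen-degrading lysosomal protease cathepsin K, was the gene at an unadjusted p under 0.05, 1 of 5 beside 14.5% of all genes, with 5.24, 5.49 and 5.52 in control libraries 3, 4 and 2, and 5.98, 6.19 and 7.08 in Hsp47-deleted libraries 1, 2 and 3 (log2 fold change 1.00, limma, BH-adjusted p = 0.294, unadjusted p of 0.023). As for *Timp1* and *Mmp3*, Hsp47-deleted library 3 was the highest library. *Ctsl*, cathepsin L, had the highest mean of this list (363 on the linear scale), and its groups did not overlap either, 2 of 5 beside 18.3% of all genes. Of the 5 tested MMP genes that are not members, 4 were above 0, beside 74.5% of all genes, with a median of 0.17 that is below the 0.35 of all genes. After centring 2 of the 5 were above 0, and none reached an unadjusted limma p of 0.05. *Mmp28* was highest at 0.81 (BH-adjusted p = 0.42), with 1.51, 1.29 and 2.62 in control libraries 3, 4 and 2, and 2.85, 3.00 and 2.00 in Hsp47-deleted libraries 1, 2 and 3, so that the second-run control lay inside the other group.

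The genes whose pattern over the libraries was most like that of *Mmp2* were sought among 7024 genes with a mean linear value of at least 10. On log2 values centred on the library median, the 5 highest Pearson correlations over the 6 libraries, which carry label and run alike for every gene, were with *Frzb*, a secreted Wnt antagonist (0.989), *Sphk1*, a sphingosine kinase (0.989), *Ogn*, the proteoglycan osteoglycin (0.988), *Ccnl1*, cyclin L1 (0.987), and *Aspn*, the proteoglycan asporin (0.982). These are descriptions of 6 points per gene.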

How the data were processed

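RNA of sorted EGFP+ cells was amplified (NuGEN) and sequenced on a HiSeq2500 from tagmented libraries. A deposited table from the authors holds log2(value + 1) of 28987 genes in 6 libraries, together with group means and their own comparison (fold, p-values and adjusted p-values), which was not used. The submitters' processing notes name kallisto and mm10, and the paper names AltAnalyze. The linear unit is not named. It was checked on genes with a single annotated transcript above a minimum length, in 5 length bins with medians from 598 to 3386 bases. A low quantile of the positive values (median over libraries) times the median length of the bin stayed between 52.5 and 71.0. Levels were therefore compared per length. Depth is unknown and no interval that needs it is given.

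The deposited log2 values, with their pseudocount of 1, entered limma 3.58.1 under R 4.3.3 (lmFit, eBayes with trend, no covariate) for genes with a mean linear value of at least 1, with Benjamini-Hochberg (BH) adjustment over all 15109 and calls at an adjusted p under 0.05. The fit was tested on simulated independent normal values with known changes. These held no run effect, so that test does not bear on the uneven split of the labels over the runs. Fold changes on this scale understate those of low genes. The labels do not tie libraries to separate animals, and p-values measure the spread between these libraries. Ratios were compared by exact permutation. All members, *Serpinh1*, other MMP genes above 0 in any library, the genes of 2 further lists at an unadjusted p under 0.05 or with the highest mean, and the 5 genes most like the member with the smallest p are named. The members and lists were chosen with earlier results of these data known. Positions come from GENCODE release M21, promoter letters from RefSeq, and no member had a copy at 95% identity over 80% of its transcript (minimap2 2.31-r1302). Protein sequences were not used here. Alternatives were sequencing run as a covariate, the second run alone, a replicate block, other filters, pseudocounts and scalings, limma without trend or with robust estimation, and each library left out.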

Additional observations from a re-analysis of the deposited data

How the results depend on the processing

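The 17 alternatives, of which the second run alone gives no test, left the call of every member as reported, except that leaving out control library 2 brought *Mmp2* and *Mmp23* past the threshold, so that the number called ran from 0 to 2 over the fits without 1 library, and that of the activators and inhibitors from 0 to 3 (*Pcsk6*, *Bsg* and *Plat*), with 2768 of all genes called. Run and label coincide in that fit. The list alternatives were chosen after seeing the data. The median of the members (0.61) was 0.12 in the second run alone, 0.19 after centring and 0.13 after quantile normalization. Sequencing run as a covariate gives every gene the same estimate as the second run alone, since the first run held controls only. Both therefore rest on control library 2 and are not separate checks. Signs turned for *Mmp14* (-0.10 with the run covariate, in the second run and after quantile normalization, and -0.18 after centring), for *Mmp23* (-0.019 with the run covariate and in the second run), for *Timp4* (-0.84 with both), for *Timp2* and *Timp3* (-0.40 and -0.29 after centring, -0.59 and -0.42 after quantile normalization), and in the second run for the ratios of *Mmp14* to *Timp2* (-0.36), *Mmp14* to *Timp3* (-0.22) and *Timp3* to *Timp2* (-0.14). The cause was not tested. Over the fits without 1 library, *Mmp11* ran from -0.73 to 0.63, *Timp2* from -0.11 to 0.10 (-0.063 without Hsp47-deleted library 2), *Timp4* from -0.058 to 1.52, and the ratio of *Mmp14* to *Timp3* from -0.066 to 0.28, whereas *Mmp2* kept values from 0.97 to 1.14. Scaling moved *Mmp2* further, to 0.66 after centring (unadjusted limma p of 0.0655) and to 0.51 after quantile normalization. In both of these fits 0 members had an unadjusted limma p under 0.05. Over all alternatives with a test, the BH-adjusted limma p of *Mmp2* ran from 0.0227 to 0.783. The number of all genes called (37) ran from 8 to 19 in the other fits without 1 library, and was 16 with a pseudocount of 0.1, 18 after centring and 17 after quantile normalization.

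Controls and Hsp47-deleted libraries share only the replicate numbers 2 and 3, which the labels tie to nothing shared, and the deviations of same-numbered libraries correlated at 0.156 and 0.228. With the replicate number as a block, 0 members and 0 of all genes were called by limma (2 members at an unadjusted p under 0.05), and *Timp4* turned to -0.57.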
